A study of Mus musculus with 13 samples.

Results

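The mouse α-defensins, also called cryptdins, were described here for 10 genes, Defa38, Defa21, Defa42, Defa29, Defa5, Defa26, Defa39, Defa32, Defa37 and Defa4, of 36282 genes or transcripts with a probe on the array. The genes were chosen by their measured values on these same arrays, in a comparison that is not stated, and their probes were found by gene name or, for 6 genes that carry older names in the files, through the RefSeq identifier of the probe. They have 12 probes, each with a signal well above background on 2 or more of the 13 arrays. A further 16 α-defensin names on the array, with 23 probes, served for comparison.

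α-Defensins are small cationic antimicrobial peptides that Paneth cells store in granules and release into the crypts of the small intestine. In the mouse they are made as inactive precursors that the matrilysin Mmp7 cleaves, and they are encoded by a cluster of near-identical gene copies on chromosome 8. Paneth cells are a regular cell type of the small intestine and are normally rare or absent in the mouse colon, and their differentiation depends on Wnt signalling, the pathway that loss of Apc activates.

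All mice were CPC-Apc mice, CDX2P-NLS Cre;Apc+/loxP, in which a Cre recombinase driven by a Cdx2 promoter deletes 1 Apc allele in the cells that express it, so every sample, control tissue included, came from this genotype. From 8 weeks of age they received 24 tail vein injections, 3 per week, of super carbonate apatite particles loaded with 25 µg each of miR-200c, miR-302 (a to d) and miR-369 (3p and 5p), or with a matching amount of negative control microRNA. Tumors and normal colorectal tissue were collected, which gave 4 groups: normal tissue of control mice (2 arrays), tumors of control mice (7), normal tissue of microRNA-treated mice (2) and tumors of microRNA-treated mice (2). They are called control normal, control tumor, microRNA normal and microRNA tumor arrays below. The labels do not say which mouse gave which sample, the place along the colon or the age at collection, so p-values measure only the spread between these samples, which may be technical.

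Each array was hybridised with Cy3-labelled material from 35 ng of total RNA. Between 50.7% and 57.0% of probes were well above background per array, and the number of arrays limits the precision. Levels below are log2 of the deposited intensity minus log2 of the 75th percentile of the same array, so that 0 is that percentile, and they are compared for 1 probe across arrays and not between probes. Markers of epithelium (7 of 7 measured) averaged between 5.76 and 7.00 on every array. Hoxb13, a gene of the posterior gut, lay between 5.65 and 6.63 on 10 arrays, but at -1.57 and -4.53 on control tumors 1 and 5 and at -0.50 on microRNA normal array 2. The arrays were on 2 slides: slide 2 held both control normals, control tumor 3, microRNA normal 1 and microRNA tumor 1, and slide 1 held the rest.

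Of the 10 genes, 9 were placed by the files on chromosome 8 of the mm9 assembly, within 647 kb, and the files give no place for Defa4. From one end to the other, the probes lay at 22166019 to 22166078 (Defa21, + strand), 22234705 to 22234764 (Defa38, - strand), 22437935 to 22437994 (Defa5, + strand) and 22465567 to 22465609 (Defa29, - strand). Further along were both probes of Defa42, at 22565899 to 22565958 and 22565917 to 22565976 (- strand), and those of Defa32, at 22639658 to 22639717 and 22640300 to 22640359 (+ strand). Defa37 (22675997 to 22676056, + strand), Defa26 (22728711 to 22728770, + strand) and Defa39 (22813124 to 22813183, - strand) completed the series. Exon and UTR annotation of that assembly was not used here.

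Because the copies are so alike, a probe named for 1 gene can bind the transcripts of others. The files list transcripts of more than 1 α-defensin gene for 7 of the 12 probes: the Defa26 probe lists those of Defa22, Defa26, Defa38 and Defa40, the Defa5 and Defa37 probes those of 4 genes each, and the Defa21 probe those of Defa21 and Defa22. Both Defa42 probes and those of Defa29 and Defa39 list 1 gene. The probe sequences show how close these pairs are, with capitals at each base that the other probe of the pair does not share (Defa21 and the second Defa32 probe are set against each other with a shift of 1 base).
Defa37: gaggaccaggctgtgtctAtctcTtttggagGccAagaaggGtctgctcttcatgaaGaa
Defa32 probe 1: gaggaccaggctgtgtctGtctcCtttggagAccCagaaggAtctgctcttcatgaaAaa
Defa21: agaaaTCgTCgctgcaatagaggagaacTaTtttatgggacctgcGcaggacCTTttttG
Defa32 probe 2: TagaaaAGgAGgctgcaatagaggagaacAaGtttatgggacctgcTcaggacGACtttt
Defa37 and the first Defa32 probe were identical at 54 of 60 positions, and Defa21 and the second Defa32 probe at 49 of the 59 that overlap.

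For Defa42 and Defa29 the probes overlapped further. The 2 Defa42 probes shared a run of 42 bases and each had 18 bases of its own, while the first Defa42 probe shared a run of 44 bases with the Defa29 probe. The ends below show what the first Defa42 and the Defa29 probe share: the 18 bases that the first Defa42 probe has to itself, in capitals, do not occur in the second Defa42 probe, and all but the last of them, also in capitals, close the Defa29 probe.
Defa42 probe 1, last 30 bases: ttctctcataaaCTCCTTGCTGAAAAATCA
Defa29, last 30 bases: cttctctcataaaCTCCTTGCTGAAAAATC
Defa42 probe 2, first 18 bases: gcctttggtctccacgat
Over the 13 arrays the log2 difference between the first Defa42 probe and the Defa29 probe had an SD of 0.25, against 1.44 between the 2 Defa42 probes. Close levels also occurred between probes with little sequence in common, as between Defa5 and Defa37, with an SD of 0.32 and a longest shared run of 6 bases. Transcripts of Defa5, Defa34 and Defa37 are listed for both of these probes, so they may read the same transcripts at different places. A gene name in what follows therefore stands for its probe.

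The α-defensins were low in control normal tissue, higher on average and variable in control tumors, and had their highest group mean in the normal tissue of microRNA-treated mice. The microRNA tumors were above both control normals for 9 of the 10 genes, the exception being Defa39. Separations of groups, here and below, were not counted over all genes, so they are descriptions only. Defa32 (first probe) read -0.29 and 0.33 on the control normal arrays, from 4.63 to 8.16 with a median of 5.43 on the control tumors, 9.46 and 8.52 on the microRNA normals, and 5.94 and 5.45 on the microRNA tumors. For Defa37 the values were -0.62 and -0.13 in control normals, 3.42 to 7.98 (median 4.93) in control tumors, 9.16 and 8.00 in microRNA normals, and 5.27 and 4.90 in microRNA tumors. For both genes all 7 control tumors lay above both control normals, and both microRNA normals lay above the highest control tumor, for Defa37 by a margin far smaller than the spread between replicates. Defa5 was at -3.26 and -2.83 in control normals, at 0.88 to 5.88 (median 2.91) in control tumors, at 7.17 and 6.22 in microRNA normals and at 2.60 and 2.67 in microRNA tumors. Defa26 gave -4.48 and -2.43, then 1.63 to 5.62 (median 2.46), then 6.72 and 5.79, then 2.99 and 2.83 in the same order of groups. Neither gene showed any overlap between the control normals, the tumors and the microRNA normals.

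The first Defa42 probe read -2.57 and -2.67 in control normals, -0.28 to 5.09 (median 2.20) in control tumors, 8.50 and 7.19 in microRNA normals, and 2.20 and 0.32 in microRNA tumors. Its second probe read -2.73 and -4.30, -2.68 to 3.10 (median -0.82), 8.44 and 6.97, and -2.25 and -1.13. Defa29 stood at -2.67 and -3.12, at -1.05 to 4.29 (median 1.36), at 8.03 and 6.81, and at 1.18 and -0.47. In Defa29 and the first Defa42 probe all control tumors exceeded the control normals, and in the second Defa42 probe the higher control normal (-2.73) lay just below the lowest control tumor (-2.68). Defa21 was at -3.94 and -3.39 in control normals, -3.18 to 2.65 (median 0.77) in control tumors, 7.55 and 6.11 in microRNA normals, and -0.69 and 0.71 in microRNA tumors. The second Defa32 probe gave -2.12 and -1.50, -0.22 to 4.92 (median 3.00), 8.37 and 7.22, and 2.13 and 3.00. On each of these 5 probes the microRNA normals stood clear of every other array, by over 2 log2 units.

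Defa38, Defa39 and Defa4 departed from that order in part. Defa38 read -3.10 and -6.46 in control normals, -3.10 to 2.71 (median -0.44) in control tumors, 7.96 and 6.42 in microRNA normals, and -2.67 and -1.81 in microRNA tumors. Defa39 was not well above background on either control normal array (-3.86 and -4.29), ran from -4.03 to -0.16 (median -2.89) in control tumors, reached 5.70 and 4.25 in microRNA normals, and lay at -4.85 and -3.77 in microRNA tumors, with 1 of these last values not well above background. Defa4 gave -5.85 and -3.83, -1.76 to 5.45 (median 2.88), 4.98 and 3.55, and 2.28 and 1.77. In Defa38 and Defa39 the control tumors overlapped the control normals, and in Defa4 the highest control tumor exceeded both microRNA normals. For Defa38, Defa21, Defa26 and Defa4, 1 of the 2 control normal values was not well above background, so those low values carry less precision, and no spot of any of the 12 probes was saturated.

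**Figure D1:**
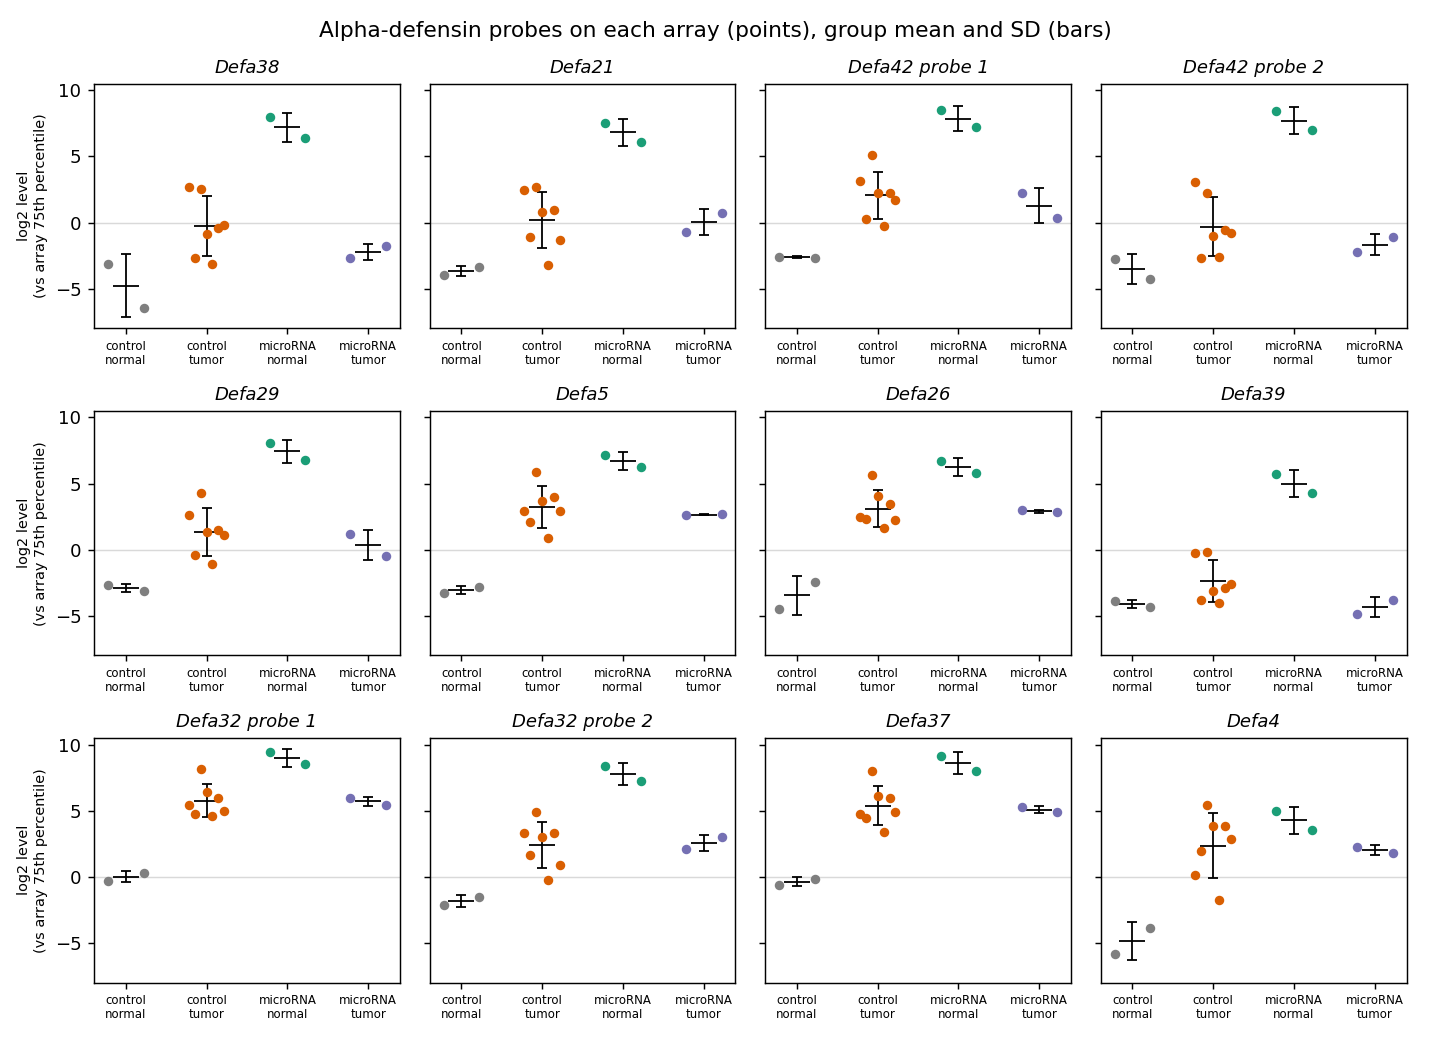
Levels of the 12 α-defensin probes on the 13 arrays, as log2 of intensity against the 75th percentile of the array (y axis), by group (x axis), with points for arrays and bars for the group mean and SD. The 2 microRNA normal arrays are above all control normals and all microRNA tumors on every probe, and above all control tumors on every probe but that of Defa4.

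The α-defensins moved together across arrays. Each gene's level correlated with the mean of the other 9 at r between 0.82 (Defa39) and 0.98 (Defa42) over the 13 arrays, a description of points that share groups and, for several probes, target sequence. The same tumors were high or low for nearly all of them: control tumor 3 was the highest control tumor on 10 of the 12 probes and control tumor 1 on the other 2, those of Defa38 and the second of Defa42, while control tumor 5 was the lowest on 11. The mean level of the 10 genes was 4.75 in control tumor 3, -0.28 in control tumor 5, and 2.64, 0.78, 2.44, 2.45 and 1.66 in control tumors 1, 2, 4, 6 and 7. MicroRNA normal array 1 was above array 2 on all 12 probes, with means of 7.52 and 6.29. The 2 microRNA tumors were close to each other, at 1.43 and 1.26, and so were the control normals, at -3.06 and -2.88.

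The comparison of control tumors with control normals sets tumor against normal tissue in mice without an active microRNA. Both control normals were on slide 2, with control tumor 3 as the only control tumor there. Squamous markers were higher on them (means of 1.23 and -0.31) than on any control tumor (-2.41 at most). Tumor formation therefore cannot be told apart from the site of the tissue. Its separation from slide is weak, with 1 control tumor on the slide of the control normals. With the slide as a block the median difference of the 10 genes was 6.99. On slide 2 alone it was 7.92, with the control tumor that was highest on most probes. All 10 α-defensins had a higher mean in the tumors, by 1.67 to 7.18 on the log2 scale, with a median of 5.20 against -0.09 over all genes tested. The difference was 6.25 (SE 0.93) for Defa5, 5.75 (SE 0.88) for Defa37, 5.73 (SE 0.76) for Defa32, 4.67 (SE 1.10) for Defa42 and 4.23 (SE 1.09) for Defa29. It was 7.18 (SE 1.48) for Defa4, 6.56 (SE 0.88) for Defa26, 4.49 (SE 1.45) for Defa38 and 3.83 (SE 1.28) for Defa21, values that rest on 1 control normal array not well above background and have no firm order among the genes. Defa39 was 3.19-fold higher by the fitted means (1.67, SE 0.97). Its control normals were not well above background and overlapped its tumors, so that size is not firm. All 7 tumors lay above both normals for 8 of the 10 genes, the exceptions being Defa38 and Defa39. The share of all genes separated in this way was not counted. By the limma test, 19.1% of all genes were called in either direction, 8.18% higher and 10.9% lower (adjusted p under 0.05). These values describe the choice of the genes and are no test of it. In whole tissue, fewer cells of a type and less RNA per cell cannot be told apart. Between the normal tissues the difference of means was larger still, at 8.95 (Defa37) or more on the log2 scale. Its median was 9.73 against 0.04 over all genes. All 10 genes were above both control normals on both microRNA normal arrays. Squamous markers averaged -3.60 and -3.68 on these microRNA normals. Small intestinal markers averaged 3.00 and 2.22 there, against -1.03 and -0.37 on the control normals. The microRNA treatment therefore cannot be told apart from the site of the tissue. Site may likewise enter each comparison below that uses these normal arrays. The fitted difference of Defa38, 11.97, depends on a control normal value of -6.46 that was not well above background, and so its size is not firm. Defa39 was 529.6-fold higher there by the fitted means, over control normals that were not well above background. limma called 9 of the 10 higher, against 0.287% of all genes higher and 0.534% in either direction, and 4 without microRNA normal array 1, and since the choice of the genes may rest on these arrays nothing is read from the count.

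In microRNA-treated mice the order of tissues was turned: the tumors were below the normal tissue for every α-defensin. The difference of means (tumor minus normal) was -9.43 (SE 1.81) for Defa38, with a 95% interval from -13.39 to -5.47, and -9.28 (SE 1.21) for Defa39, from -11.93 to -6.63. It was -7.06 (SE 1.36) for Defa29, -6.82 (SE 1.59) for Defa21 and -6.58 (SE 1.37) for the first Defa42 probe, which is 133.7-fold, 112.7-fold and 95.7-fold lower. The remaining genes differed less: Defa5 by -4.06 (SE 1.16), Defa37 by -3.50 (SE 1.10), Defa26 by -3.35 (SE 1.10), Defa32 by -3.29 (SE 0.94) and Defa4 by -2.24 (SE 1.84, 95% interval from -6.26 to 1.78). Both normals were above both tumors for all 10 genes, but how many of all genes separate in this way was not counted, so nothing is read from it. The first 5 genes were called lower by limma, against 1.72% of all genes lower, 1.39% higher and 3.11% in either direction, and the median was -5.32 against -0.14 over all genes. The normal arrays here are those in which the 10 genes are highest, so the count is given as a description. It fell to 1 gene, Defa39, when either microRNA normal array or either microRNA tumor array was left out, and rose to 9 without control tumor 3.

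The same direction was seen on each slide, where 1 microRNA normal array met 1 microRNA tumor array. On slide 2, tumor minus normal was -10.63 for Defa38, -10.55 for Defa39 and -8.23 for Defa21, and on slide 1 it was -8.23, -8.02 and -5.40 for these genes. The smallest differences were those of Defa4, -2.71 and -1.77. All 12 probes were lower in the tumor on both slides. The second Defa42 probe gave -9.39 over both slides, compared with -6.58 for the first, and the second Defa32 probe -5.23, compared with -3.29, so the size of the difference depended on the probe while its sign did not.

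Tumors of microRNA-treated and of control mice were next compared, which addresses the effect of the microRNAs on tumor tissue and takes no mean from the normal arrays, though it shares the control tumors with the first comparison. No α-defensin was called (0 of 10 by limma, and 0 at an unadjusted p under 0.05), against 0.00393% of all genes called and 2.10% at an unadjusted p under 0.05. The difference (microRNA minus control) was -1.95 for Defa38, with a 95% interval from -5.13 to 1.23, and -1.91 for Defa39, from -4.03 to 0.22. For Defa42 and Defa29 it was -0.79 (-3.19 to 1.61) and -0.98 (-3.37 to 1.41), and for Defa5 -0.56 (-2.60 to 1.47). Defa32 differed by -0.05 (-1.71 to 1.60), Defa21 by -0.16 (-2.95 to 2.63), Defa26 by -0.19 (-2.12 to 1.73), Defa37 by -0.29 (-2.22 to 1.64) and Defa4 by -0.31 (-3.54 to 2.91). Each interval holds 0 and spans more than 3 log2 units, so changes of several fold in either direction were not detectable with 2 and 7 arrays. For 7 of the 10 genes the sign turned under at least 1 alternative, so no direction is read. Both microRNA tumors lay within the range of the 7 control tumors for 9 of the 10 genes, the exception being Defa39, where the lower of them was not well above background. No share over all genes was counted for this.

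**Figure D2:**
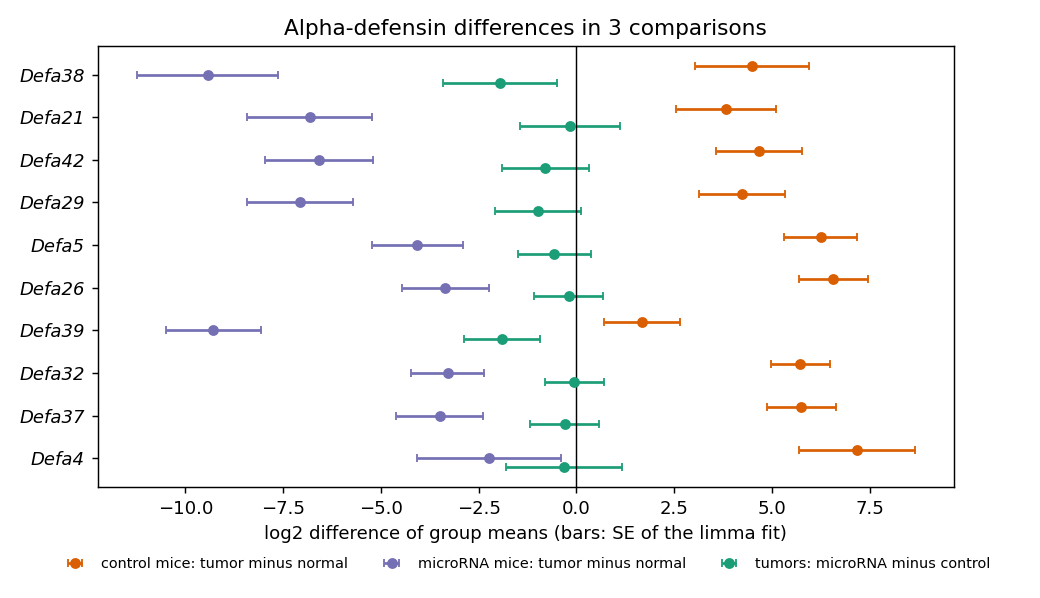
Log2 differences of group means (x axis) for the 10 α-defensins (y axis), with SE bars of the limma fit, for tumor minus normal in control mice, tumor minus normal in microRNA mice, and microRNA tumor minus control tumor. The first are all above 0, the second all below 0, and the third range from -1.95 to -0.05; the comparisons share arrays.

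The tumor difference in microRNA mice minus that in control mice was -9.02 (Defa32) to -13.92 (Defa38), with a median of -10.48 against -0.04 over all genes. Control normal values not well above background enter those of Defa38, Defa39, Defa21, Defa26 and Defa4, so their sizes are not firm. limma called 8 of the 10 genes, against 0.283% of all genes (0.181% lower and 0.102% higher); Defa21 (-10.65) and Defa4 (-9.42) were not called. The count was 0 without control normal 1, microRNA normal 1 or microRNA tumor 1, 1 without microRNA tumor 2, 3 without microRNA normal 2 and 4 without control normal 2, and it is a description for the reason given above.

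The other α-defensin probes followed the same order of groups. Of 23 probes with 16 names, 20 probes (13 names, among them Defa1, Defa3, Defa23, Defa25, Defa27, Defa40, Defa-rs2, Defa-rs7 and Defa-ps1) had a signal well above background on 2 or more arrays, and Defa10, Defa-ps12 and Defa-ps13 on none. All 7 control tumors were above both control normals on 19 of these 20 probes, and both microRNA normals were above both control normals and both microRNA tumors on 20. These counts have no share over all probes beside them. Control tumor 3 was again the highest control tumor on 20, and control tumor 5 the lowest on 17. They differed from the 10 genes at the top of the scale, where the microRNA normals were above every control tumor on 7 of 20 probes, and control tumor 3 exceeded microRNA normal array 2 on 13. Tumor minus normal in control mice ran from 0.69 to 6.44 with a median of 5.78, and in microRNA mice from -5.89 to -2.19 with a median of -3.00. At the level of genes, 12 of 13 rose in control tumors (8.18% of all genes did), and the exception, Defa25, gave 0.69 there and -0.17 with normexp. In microRNA mice 1 of 13 was lower in tumors by the limma test (1.72% of all genes), Defa25 (-5.89, adjusted p = 0.0106), a call lost without microRNA normal 1, microRNA tumor 1 or microRNA tumor 2. In tumors, microRNA minus control lay between -0.49 and 0.01, and none of the 13 was called (0 at an unadjusted p under 0.05). These names share sequence with the 10 genes, so they are not independent of them.

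Promoters of the family carry a short motif of TCF factors, through which β-catenin acts on Wnt target genes, and Paneth cell defensins are known targets of that pathway. RefSeq promoters (GRCm38.p6, 300 bases, from 250 before to 50 after the start) matched 5 of the 10 genes and 16 α-defensins in all. The motif was searched as CTTTG followed by 2 bases that are each A or T, on both strands. It occurred in 13 of 16 α-defensin promoters (81.25%) compared with 16.9% of 32851 promoters of the same length. At least 2 copies occurred in 9 of 16 (56.25%) compared with 1.94%. Several of the 16 are near-identical copies, such as Defa21 and Defa22, with 0 substitutions between them over the 58 bases described below. They are therefore not independent, and the shares may count 1 shared motif many times. Defa21 had copies at -112 and -72 from the start, Defa32 at -110 and -70 and Defa37 at -127, and none was found in the windows of Defa38 and Defa42. A stretch of 58 bases with the TATAAA box is printed for these 5 genes, to show how they differ there. In Defa21 and Defa32 it also holds the copy nearer to the start. The copy of Defa37, at -127, lies before its stretch, which begins at -92. The motif, where present, and the box are in capitals.
Defa21, chr8:21025468-21025525, + strand: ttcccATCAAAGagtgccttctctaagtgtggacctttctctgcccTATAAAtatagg
Defa32, chr8:21528955-21529012, + strand: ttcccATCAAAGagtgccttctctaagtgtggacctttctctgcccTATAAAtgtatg
Defa37, chr8:21565294-21565351, + strand: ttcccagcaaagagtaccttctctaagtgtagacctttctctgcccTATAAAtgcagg
Defa38, chr8:21096113-21096170, - strand: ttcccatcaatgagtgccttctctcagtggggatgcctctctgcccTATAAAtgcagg
Defa42, chr8:21456580-21456637, - strand: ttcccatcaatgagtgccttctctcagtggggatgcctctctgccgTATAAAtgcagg
Counted from 1 at the 5′ end of the stretch, with the Defa21 base first, Defa32 had 2 substitutions (A54G and G57T), neither in the motif, and Defa37 had 5, of which T7G lies in it. Defa38 and Defa42 had 9 and 10, including A11T in the motif, and the TATAAA box stood at -74 from their start, compared with -31 in Defa21, -29 in Defa32 and -46 in Defa37. These matches are a description. Beside them, the difference between control tumors and normals was 4.49 for Defa38 and 4.67 for Defa42 (no copy), 5.75 for Defa37 (1 copy), and 3.83 for Defa21 and 5.73 for Defa32 (2 copies), too few genes to relate the one to the other.

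Other genes of a Paneth granule and secretion list did not move as a block with the α-defensins between tumor and normal tissue. Of 19 listed genes, 16 were measured (not Mptx2, Ang5 and Ang6). In control tumors 4 rose and 2 fell, with a median difference of 0.16, and in microRNA mice 2 were higher and 1 lower in tumors, with a median of -0.55 (limma, adjusted p under 0.05; 19.1% and 3.11% of all genes called). Mmp7, the protease that activates the mouse α-defensins, rose in control tumors by 6.49 (SE 0.52, adjusted p = 4.0e-05). It read -1.77 and -0.39 in control normals, 4.38 to 6.25 in control tumors, 3.15 and 2.42 in microRNA normals and 6.27 and 5.08 in microRNA tumors, so unlike the α-defensins it was higher in tumor than in normal tissue in both groups of mice. In microRNA mice that difference was 2.89 (SE 0.65, adjusted p = 0.0367), and the call was lost without any one of the 4 microRNA arrays or without control tumor 4 or 7.

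Pla2g2a, a secreted phospholipase of Paneth granules, gave -1.06 and -0.74 in control normals, 2.72 to 4.00 in control tumors, 1.06 and 0.32 in microRNA normals and 3.40 and 3.42 in microRNA tumors. It rose in the tumors of control mice by 4.42 (SE 0.36, adjusted p = 4.6e-05) and of microRNA mice by 2.72 (SE 0.45, adjusted p = 0.0105 by limma), the latter not without microRNA normal 2, microRNA tumor 1 or microRNA tumor 2. Habp2, which was not well above background in control normals, was at least 105.2-fold higher in control tumors (adjusted p = 5.9e-05). Lyz1, the lysozyme of Paneth cells, read 4.10 and 3.73 in control normals, 5.42 to 7.24 in control tumors, 7.30 and 5.64 in microRNA normals and 6.89 and 5.94 in microRNA tumors. It rose in control tumors by 2.47 (SE 0.58, adjusted p = 0.0174) and differed by -0.05 between tumor and normal tissue in microRNA mice. Mptx1 (-7.73, SE 1.93, adjusted p = 0.0220) and the angiogenin Ang4 (-3.43, SE 0.86, adjusted p = 0.0224) fell in control tumors. The calls of Lyz1, Mptx1 and Ang4 were lost without either control normal array, which left 3 of the 6 called. Those of Mptx1 and Ang4 were also lost with the slide as a block, where both control normals and 1 of the 7 control tumors were on slide 2.

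Among the antimicrobial lectins, Reg3a was also lower in tumors than in normal tissue of microRNA mice. It read 2.31 and 0.43 in microRNA normals, was not well above background in either microRNA tumor, and was at least 74.3-fold lower there (adjusted p = 0.0368 by limma), a call lost without any one of the 4 microRNA arrays, either control normal array or control tumor 4. Reg3b and Reg3g differed by -4.61 (adjusted p = 0.140) and -4.76 (adjusted p = 0.101) and did not pass. The remaining genes of the list did not pass in microRNA mice either: Guca2b gave -1.80, Mptx1 -1.86, Itln1 -1.36, Ang4 -1.34, Pnliprp2 -0.72, Clps -0.38, Nupr1 -0.24, Sntb1 0.04, Spink4 0.44 and Habp2 1.37. Between microRNA and control tumors no gene of the list was called (0 at an unadjusted p under 0.05). Between the normals, Mmp7 (3.87, SE 0.65, adjusted p = 0.0183) and Habp2 (at least 26.9-fold, adjusted p = 0.00617) were higher in microRNA mice, and without microRNA normal 1 or control normal 1 neither was called.

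**Figure D3:**
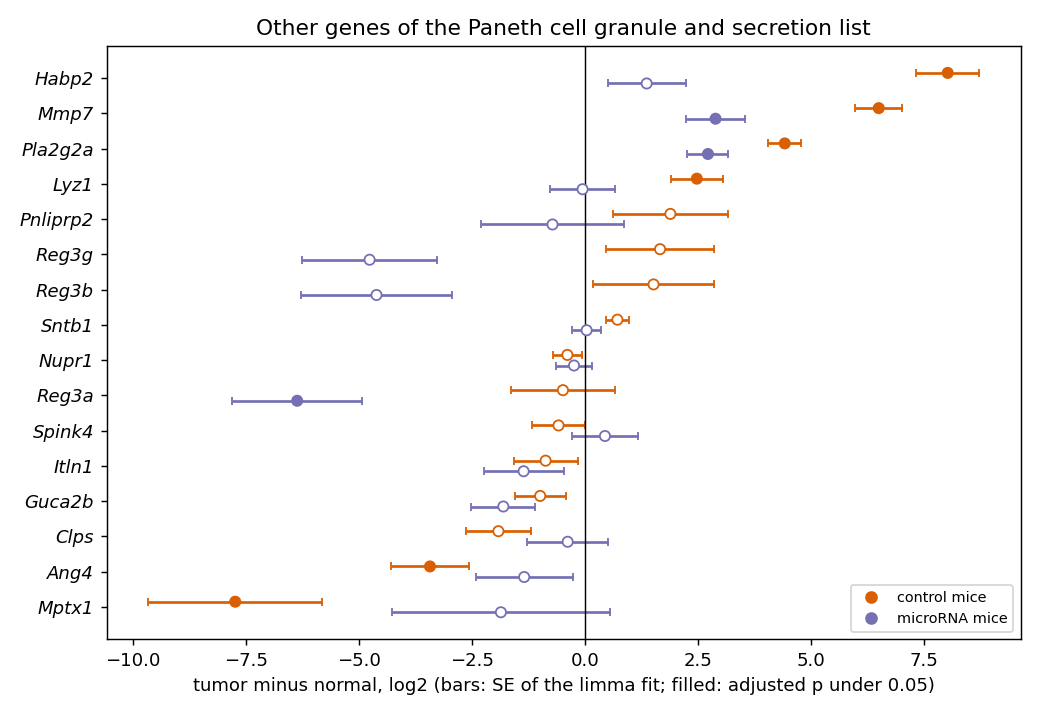
Tumor minus normal on the log2 scale (x axis) for the 16 measured genes of the Paneth granule and secretion list (y axis), in control mice and in microRNA mice, with SE bars of the limma fit and filled points where the adjusted p was under 0.05. Mmp7 and Pla2g2a are filled above 0 in both groups of mice, and Reg3a is filled below 0 in microRNA mice.

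Genes of the Paneth lineage, of Wnt signalling and of EphB positioning were then counted. All 27 listed genes were measured, and 0 rose and 2 fell in control tumors, with a median of -0.35 (8.18% of all genes rose and 10.9% fell). The 2 were Tcf7l2, which encodes the Wnt effector Tcf4 (-1.37, SE 0.31, adjusted p = 0.0147 by limma), and Fgfr3, a growth factor receptor of crypt cells (-1.85, SE 0.58, adjusted p = 0.0444). This count of 2 was 0 without either control normal array, 1 without either microRNA normal array or control tumor 4, 5, 6 or 7, 4 without control tumor 1, and 0 to 10 over all alternatives. In microRNA mice limma called 0 of 27 (6 at an unadjusted p under 0.05, against 22.4% of all genes), with a median of -0.36. The smallest p-values there were those of Tcf7l2 (-1.38, adjusted p = 0.0730), the ephrin ligand Efnb1 (-1.77, adjusted p = 0.0775), Sox9, which Paneth cells need to form (1.25, adjusted p = 0.0867), and Hnf4a, a regulator of intestinal identity (-1.55, adjusted p = 0.135). None was called between the normals or between the tumors (0 at an unadjusted p under 0.05 in each).

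Markers of other cell types also differed between the groups and are given beside the α-defensins. Small intestinal enterocyte markers (18 of 19 measured) averaged 3.00 and 2.22 on the microRNA normals, against -1.03 and -0.37 on control normals, -3.67 to -0.91 on control tumors and -3.05 and -2.96 on microRNA tumors. In microRNA mice 11 of the 18 were lower in tumors (1 on slide 1 alone) and none higher, and between the normals 5 were higher in microRNA mice and none lower (1.72% and 0.287% of all genes were called in those directions). Anpep, a brush border peptidase, read 1.35 and 2.13 in control normals, 0.77 to 2.37 in control tumors, 8.13 and 6.92 in microRNA normals and 0.04 and 1.01 in microRNA tumors, which was 5.79 (SE 0.61) higher between the normals (limma, adjusted p = 9.0e-04). Mttp, which loads lipid onto lipoproteins, was higher there by 4.90 (SE 0.44), and the lipoprotein gene Apoa1, not well above background in control normals, by at least 206.2-fold (adjusted p = 2.1e-04). Apoa4, also not well above background in control normals, was at least 2.66-fold higher (limma, adjusted p = 3.5e-04), a call lost with normexp or with these groups fitted alone. Beyond these 4 genes with the smallest p, Fabp6 is named in addition. Fabp6, the ileal bile acid binding protein, was higher by 6.89 (SE 1.10, adjusted p = 0.0135), a call lost without either microRNA normal array or control normal 1. In the control tumors 7 of the 18 fell (0 without control normal 1, 1 without control normal 2, 3 without control tumor 4 or 7, 4 without control tumor 6, 11 without control tumor 1, 1 with the slide as a block, 0 with the replicate block, 2 with the unscaled series matrix and 12 with normexp), while the α-defensins were higher there. By limma 10.9% of all genes fell in control tumors. The part of small intestinal cells in the α-defensin values was not tested.

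The control normal arrays differed from the microRNA normals in squamous markers. The 7 genes of stratified epithelium averaged 1.23 and -0.31 on the control normals, -3.60 to -2.41 on control tumors, -3.60 and -3.68 on microRNA normals and -2.64 and -2.63 on microRNA tumors. Krt5, a basal keratin, was lower in microRNA normals by 5.22 log2 units, at -4.19 and -4.25 against 1.51 and 0.50 (limma, adjusted p = 4.1e-05), and 4 of the 7 genes were lower in all, a count of 1 without microRNA normal 2 or control normal 1 and of 2 without microRNA normal 1. Of all genes, limma called 0.247% lower in microRNA normals. Mature colonocyte markers (13 of 15 measured) averaged 4.64 and 5.58 in control normals, 5.75 and 5.67 in microRNA normals, 0.64 to 4.54 in control tumors and 2.09 and 2.49 in microRNA tumors, so the microRNA normals held colonocyte and small intestinal markers together. Goblet cell markers were between 5.93 and 6.70 on the 4 normal arrays. Posterior Hox genes averaged -2.40 on microRNA normal 2 and -0.97 on microRNA normal 1, against 0.02 and -0.65 on the control normals. By limma 0 of these 10 Hox genes were called between the normals. Neutrophil and myeloid markers (12 of 13 measured), of interest because human neutrophils make α-defensins and mouse neutrophils do not, averaged -2.04 and -1.65 on the microRNA normals, below every tumor (-0.47 to 1.08). The part of any of these cell types was not tested.

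**Figure D4:**
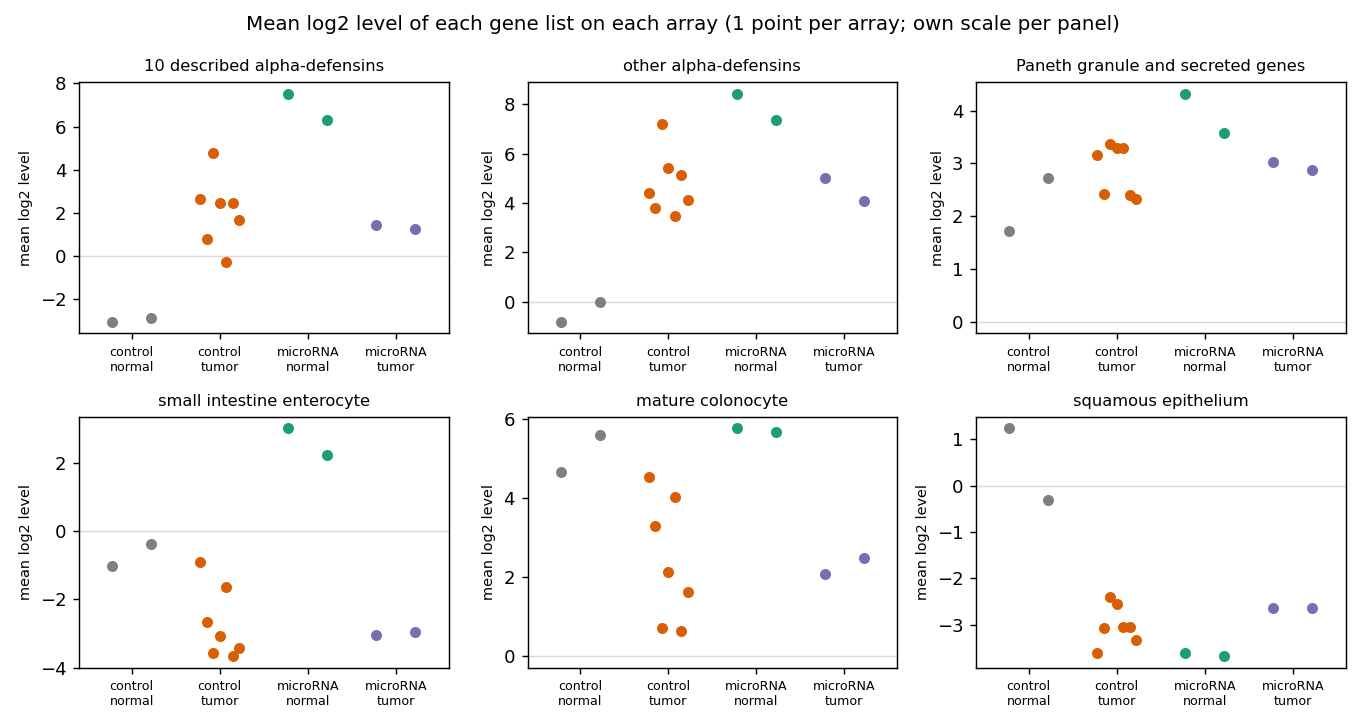
Mean log2 level against the 75th percentile (y axis, its own scale in each panel) of 6 gene lists on each of the 13 arrays, by group (x axis), with 1 point per array. The 2 microRNA normals are highest for the 10 α-defensins and for the small intestinal enterocyte markers, and the control normals are highest for the squamous markers and lowest for the α-defensins.

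Over the 13 arrays, 16616 named genes that do not carry an α-defensin name were ranked by the correlation of their level with the mean of the 10 genes, as a description of arrays that share groups and slides. The highest was AY761185, a name that sits next to Defa21 in the RefSeq order of genes, at r = 0.97. Its name is of the same form as AY761184, by which the files call Defa39, so it may be a further α-defensin. It was not well above background on the control normals, read 3.17 and 1.57 on the microRNA normals, and gave -2.82 and -4.37 on the microRNA tumors. Pdzk1, a scaffold protein of the enterocyte brush border (r = 0.94), the amino acid transporter gene Slc43a2 (0.93) and Nos2, the inducible nitric oxide synthase (0.90), followed. Nos2 read -1.25 and -1.24 in control normals and 3.38 and 2.67 in microRNA normals. Xpnpep1 (0.86), Fbp1 (0.85), Ralgps2 (0.83), Slc25a48 (0.83), Gramd1b (0.82) and 1700010I14Rik (0.81) completed the first 10, and 3 genes, AY761185 among them, exceeded 0.9. The lowest were Olfm1 (-0.86), Myo5a (-0.84) and Krtap11-1 (-0.84).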

How the data were processed

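RNA from 13 samples was hybridised to Agilent 1-colour mouse arrays, and the deposited files hold scanner output of Feature Extraction 10.7.3.1, per the file headers. Their processed signal is an intensity that the authors' software had already corrected for background, per the file headers. The deposited series matrix held the same intensity values, spot by spot, with no scaling between arrays, and served unscaled as an alternative. Here control spots were left out, spots of 1 probe were averaged, log2 intensity was taken relative to the 75th percentile of each array, and 35191 probes well above background on at least 2 arrays were kept. The brightest probe stood for each of 25468 genes or transcripts, and member values are also given per probe.

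Group means were fitted on all 13 arrays with lmFit and eBayes of limma 3.58.1 (R 4.3.3, the data.table package, version 1.17.8), with Benjamini-Hochberg adjustment over all genes and a call at an adjusted p under 0.05. The number of arrays limits the precision. Python 3.11.15, pandas 2.3.3 and matplotlib 3.10.9 prepared values and plots, and the fit was tested on simulated data with known differences.

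The members and lists were chosen with earlier results of these data known. The contrast that chose the members is not stated, so the comparisons with normal arrays are given for them as description. Groups without overlap were counted for the α-defensins only, with no share over all genes, so such counts are descriptions too. The text names all members, measured other α-defensins, every Paneth granule gene, up to 4 genes of each further list by the smallest p, and the 10 highest and 3 lowest genes by correlation with the members' mean. Fabp6 was named in addition, outside that rule. Where a group had no array well above background, a fold is a lower bound, taken against the higher of the probe's own level and the lowest signal well above background. For Defa39 that was its own level, so its folds are the fitted values and no bounds. Alternatives changed the background correction (normexp, offset 50), scaling, filter, probe rule, samples in the fit, slide, replicate number, the number in the array's name, the variance model and each array in turn. For named genes outside the members and for the marker lists these alternatives were added after seeing the data. Replicate numbers were not used as pairs: same-numbered microRNA normal and tumor arrays deviated together (r = 0.421), but other groups did not (-0.191 to 0.327) and only 2 pairs exist.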

Additional observations from a re-analysis of the deposited data

Results flagged for a closer look

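For 8 of the 10 α-defensins and for 1 further gene, the tumor difference in microRNA mice and that in control mice differed in the test of that difference across all genes (limma). The tumor difference in microRNA mice minus that in control mice was -13.92 for Defa38, -11.29 for Defa29, -11.25 for Defa42, -10.96 for Defa39, -10.31 for Defa5, -9.911 for Defa26, -9.247 for Defa37 and -9.024 for Defa32. For these genes it is a description, since the values of these arrays may have chosen them. The sizes for Defa38, Defa39 and Defa26 are not firm, because control normal values not well above background enter them. For Habp2, a secreted protease listed among Paneth granule genes, it was -6.654 (adjusted p = 0.0300), a fitted value that depends on control normal levels not well above background. That call was lost without control normal 1 or 2, control tumor 4, microRNA normal 1, microRNA tumor 1 or microRNA tumor 2. No array stood apart from its own group of 7 control tumors in the 28 groups of values examined, where chance alone marks about 1 in 20.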

How the results depend on the processing

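No value that passed the test changed its sign, but values that did not pass sometimes did: in the comparison of the tumors for 7 of the 10 α-defensins, and over all comparisons for 27 values of other genes, 16 of them between the tumors. For the 10 α-defensins singly, 1178 settings left the value on the same side of the threshold, called or not, or within 1 SD where there is no test, 91 lost a call, 33 gained one and 18 moved a value that has no test. The cause was not tested unless named. The 5 α-defensins called lower in microRNA tumors than in normals became 9 with these groups fitted alone, 8 with the slide as a block, 0 on slide 1 alone, 8 with the replicate block and 9 with the number in the array's name as a random block, and 1 to 9 with 1 array left out. None of the 10 was called between the tumors under any setting. The 9 called between the normals were 4 to 10 with 1 array left out, and the 8 with different tumor differences were 5 with the replicate block and 0 to 9 with 1 array left out. The median tumor difference of 5.20 in control mice was 7.92 on slide 2 alone, which holds 1 control tumor, and 4.74 to 5.49 with 1 array left out. Slide 1 alone holds no control normals and gives no value there.

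Counts over the whole array moved more. The 4864 genes called in control tumors were 8510 with normexp, 12589 with the series matrix, 2327 with the slide as a block, 2714 on slide 2, 449 with the replicate block and 426 (without control normal 1) to 6721 (without control tumor 3). The 792 called in microRNA mice were 2559 with normexp, 3075 with the series matrix, 1558 without a filter, 1638 with the slide as a block, 10 on slide 1, 287 on slide 2, 1222 with the replicate block, 2303 with the number in the array's name, and 78 to 1162 with 1 array left out. The count between tumors, 1 gene (the olfactory receptor gene Olfr1055, named after its value was seen), was 2 without a filter and 2 on slide 1, and 0 with normexp, the series matrix, these groups alone, slide 2, the replicate block, the number in the name, the trended robust model and some left-out arrays (0 to 1). The 136 called between normals were 75, 55, 42 and 63 with normexp, these groups alone, slide 2 and the replicate block, and 52 to 156 with 1 array left out. The 72 with different tumor differences were 41, 16 and 12 with normexp, slide 2 and the replicate block, and 18 to 92. Without scaling, the series matrix moved the median of all genes to 0.96 in control and 0.76 in microRNA mice.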

Other observations

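The β-defensins, which many epithelia make, were counted in the same comparisons. Of 43 names on the array 15 were well above background on at least 2 arrays. In control tumors 0 rose and 5 fell (limma, adjusted p under 0.05), with a median of -1.54, while 8.18% of all genes rose and 10.9% fell. The call of Defb7 was lost without either control normal array and with the slide as a block. Defb6 read 0.89 and -0.73 in control normals, -3.74 and -3.35 in microRNA normals and -6.95 to -5.19 in control tumors, and was at least 26.7-fold lower in control tumors (adjusted p = 3.5e-05). The squamous markers were high on the same 2 control normal arrays. In microRNA mice 3 were lower in tumors (1.72% of all genes), with a median of -1.25: Defb37 (at least 32.5-fold, adjusted p = 0.0447), Defb40 (at least 8.15-fold, adjusted p = 0.0306) and Defb7 (at least 2.37-fold, adjusted p = 0.0234). Each of these 3 calls was lost without any one of the 4 microRNA arrays, and that of Defb37 also without control normal 1 or 2 or control tumor 2, 4, 6 or 7. Between microRNA and control tumors limma called 0 of the 15 (0 at an unadjusted p under 0.05).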
